A study of Mus musculus with 30 samples.

Results

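The 38 genes described here act in DNA replication and mitosis and were listed by name for their known roles. All 38 were in the count table of 54232 genes, and all 38 had more than 14 counts over the 30 libraries and so were among the 20139 genes tested. RNA was sequenced from 3T3-L1 cells, a mouse preadipocyte line that turns into fat-storing cells in adipogenic medium. There were 6 groups of 5 libraries: adipogenic medium alone (Control), pNaKtide at 0.7 µM, indoxyl sulfate (IS) at 100 µM, IS with pNaKtide, oxidized LDL (oxLDL) at 50 µg/mL, and oxLDL with pNaKtide, each agent at the same dose alone and combined. IS is a solute that accumulates in renal failure, oxLDL is a lipoprotein particle damaged by oxidation, and pNaKtide is a cell-permeant peptide taken from the Na,K-ATPase that binds the kinase Src. The sample labels give 5 days of treatment, while the study's methods describe a shorter exposure, and all groups share the adipogenic medium and a single cell line. The labels name 3T3 cells as the source but mention adipose tissue in the extraction step, and nothing in them says that the 5 libraries of a group came from separate cultures. P-values therefore measure the spread between these libraries, which may be technical.

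A cell copies its DNA once per division. In G1, cyclin D with Cdk4 and cyclin E with Cdk2 release E2F transcription factors from retinoblastoma-family proteins, among them p107 (Rbl1). Cdc6 and Cdt1 load the Mcm2-7 helicase on origins, polymerases with the sliding clamp Pcna then copy the strands, and Cdk1 with cyclins A and B, the Aurora and Polo-like kinases and the spindle checkpoint divide the copies. Confluent 3T3-L1 cells are known to pass through a few rounds of division early in adipogenic medium, the mitotic clonal expansion, before they leave the cycle as adipocytes.

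Library totals ran from 6945498 to 15159877 counts, with a median of 11524210. The adipocyte markers were present, with Fabp4 at 2312 ± 95.3 CPM and Adipoq at 1070 ± 159 CPM in Control (SD, n = 5; CPM are counts relative to each library's TMM-scaled total). All 10 adipocyte markers were tested, and their summed level ran from 11348 to 17843 CPM over the libraries. The preadipocyte markers summed to 322 to 571 CPM, with 9 genes of the list tested. Of the 7 macrophage markers, Ptprc and Itgam had 0 counts and Adgre1 had 4, and the list summed to 4.35 to 8.69 CPM. Of 4 endothelial markers, only Pecam1 was tested, and its level was at most 0.61 CPM. Some libraries stood apart from their group. On the first principal component of log2 CPM, which held 66.7% of the variance, Control replicate 1 scored -23.8 among Control libraries at 5.72 to 27.2. IS replicate 4 scored 26.0 among IS libraries at -33.3 to -20.7, and oxLDL+pNaKtide replicate 4 scored 60.2. The number of the 38 genes called in each comparison is therefore also given without both Control replicate 1 and IS replicate 4. These libraries were chosen from the same data that the fits without them use.

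Summed over the 38 genes, the level was 1035 ± 66.5 CPM in Control, 1004 ± 47.9 with pNaKtide, 982 ± 22.4 with IS, 932 ± 61.7 with IS+pNaKtide, 980 ± 43.5 with oxLDL and 977 ± 25.1 with oxLDL+pNaKtide (SD, n = 5 each). The group ranges of this sum overlapped, since oxLDL libraries reached 1023 CPM and Control libraries began at 923 CPM, the value of Control replicate 1. The other Control libraries, at 1036 to 1091 CPM, lay above every library with IS or oxLDL, with or without pNaKtide. Libraries with pNaKtide alone reached 1058 CPM. In bulk RNA, fewer cycling cells and less RNA of these genes per cell cannot be told apart.

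Per length, the levels of the 38 genes in Control differed widely. Cdk4 stood highest at 53.2 ± 6.15 FPKM (fragments scaled to transcript length and library depth, SD, n = 5), followed by Pcna at 23.1 ± 1.75, Ccnd1 at 15.7 ± 1.10 and Ccne1 at 12.6 ± 1.35 FPKM. The helicase genes came next, from Mcm7 at 11.8 ± 1.502 FPKM through Mcm6, Mcm5, Mcm3 and Mcm4 to Mcm2 at 7.24 ± 1.08 FPKM, with Rrm2 between Mcm3 and Mcm4 and Cdc20 between Mcm4 and Mcm2. Neighbours in that order differed by less than their SDs, except for Mcm4 at 8.79 ± 1.01 and Cdc20 at 7.30 ± 0.863 FPKM. The proliferation marker Mki67 was at 2.23 ± 0.42 FPKM. Mcm10 was lowest at 0.56 ± 0.11 FPKM, next to Pola1 at 0.63 ± 0.19, Bub1 at 0.92 ± 0.21, and Rbl1 and Cdc6 at 1.07 FPKM each.

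**Figure D1:**
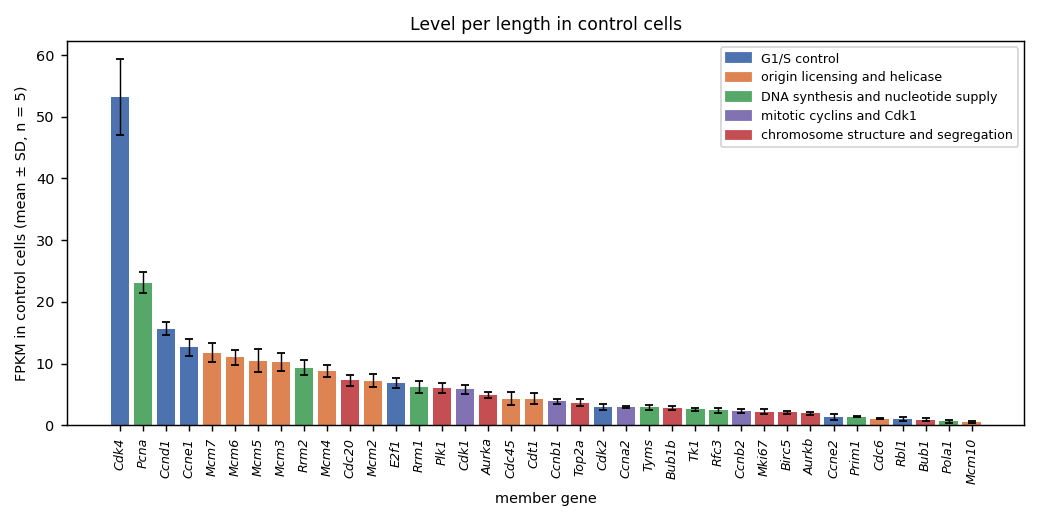
FPKM in the 5 Control libraries for each of the 38 genes, as mean (bar) and SD (line), ordered by level and coloured by role. Cdk4 stands far above the rest at 53.2 FPKM, and Mcm10, Pola1 and Bub1 lie below 1 FPKM.

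Treatment with oxLDL moved these genes in both directions, with opposite signs among subunits of the Mcm2-7 helicase. At an adjusted p under 0.1 (edgeR's quasi-likelihood test, Benjamini-Hochberg adjustment over all genes), 17 of 38 passed, 7 higher and 10 lower than in Control. Over all genes tested, 36.0% passed in this comparison, 18.1% higher and 18.0% lower. The median log2 fold change of the 38 genes was -0.09, against 0.04 for all genes. Higher were Rbl1, Ccne2, Cdk2, Mcm4, Pola1, Top2a and Mki67. Lower were Cdk4, Ccnd1, Ccne1, Mcm2, Mcm3, Mcm5, Mcm6, Mcm7, Cdt1 and Plk1.

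Among the 7 genes of G1/S control, 3 rose and 3 fell with oxLDL, where 18.1% of all genes rose and 18.0% fell. Rbl1, which encodes the E2F-binding repressor p107, read 9.68, 5.30, 7.16, 4.64 and 5.58 CPM in the Control libraries and 10.6, 10.3, 10.0, 8.86 and 11.9 CPM with oxLDL. Only Control replicate 1, at 9.68 CPM, reached into the oxLDL range. The log2 fold change was 0.67 (SE 0.18, adjusted p = 0.0117). Cdk2, the kinase partner of cyclin E, read 22.5, 15.02, 20.2, 17.4 and 19.8 CPM in Control and 25.5, 24.8, 24.3, 24.7 and 26.0 CPM with oxLDL. These groups did not overlap, and the log2 fold change was 0.40 (SE 0.12, adjusted p = 0.0147). Of the 2 cyclin E genes, Ccne2 rose from 4.02, 4.50, 7.83, 3.48 and 5.11 CPM in Control to the oxLDL values of 8.33, 8.17, 8.52, 5.80 and 8.91 CPM (log2 fold change 0.67, SE 0.23, adjusted p = 0.0307), while Ccne1 fell (log2 fold change -0.19, SE 0.08, adjusted p = 0.0932).

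Cyclin D1 and its kinase moved the other way from Cdk2. Ccnd1 read 71.8, 74.6, 69.5, 83.1 and 74.6 CPM in Control and 67.5, 59.0, 57.3, 67.0 and 61.3 CPM with oxLDL, without overlap (log2 fold change -0.26, SE 0.11, adjusted p = 0.0784). Cdk4 was at 175 CPM in Control and 149 CPM with oxLDL (log2 fold change -0.24, SE 0.09, adjusted p = 0.0526). E2f1, the transcription factor that this pathway frees, did not pass, at 21.8 and 20.8 CPM (log2 fold change -0.07, SE 0.10).

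Of the 10 origin licensing and helicase genes, 6 fell and 1 rose, against 18.0% and 18.1% of all genes. The Mcm2-7 proteins form a ring with 1 copy of each, yet Mcm4 was higher with oxLDL and the other 5 were lower. This contrast was lost when the trend of counts with GC content and length was taken out, as given with base composition, where Mcm4 was at 0.03 and did not pass and of the other 5 only Mcm5 and Mcm6 passed. Mcm5 read 30.2, 40.7, 44.2, 48.9 and 47.7 CPM in Control and 27.9, 27.7, 34.7, 30.6 and 24.9 CPM with oxLDL. The lowest Control library was again replicate 1, the only one within the oxLDL range. Its log2 fold change of -0.54 (SE 0.13, adjusted p = 0.0086) was the most negative of the 38 genes. Mcm7 read 40.9, 56.0, 57.5, 53.8 and 56.0 CPM in Control and 40.6, 37.3, 48.9, 46.6 and 38.8 CPM with oxLDL, again overlapping through Control replicate 1 (log2 fold change -0.32, SE 0.10, adjusted p = 0.0223). Mcm3 read 30.6, 40.1, 45.1, 37.2 and 42.7 CPM in Control and 32.5, 28.0, 35.1, 32.5 and 30.5 CPM with oxLDL (log2 fold change -0.31, SE 0.10, adjusted p = 0.0291). Mcm2 read 38.1, 50.4, 55.6, 53.2 and 57.7 CPM in Control and 44.7, 42.8, 45.6, 45.05 and 40.2 CPM with oxLDL (log2 fold change -0.22, SE 0.10, adjusted p = 0.0804). In both genes 4 Control libraries lay above all oxLDL libraries and replicate 1 lay among or below them. Mcm6 also fell (log2 fold change -0.22, SE 0.10, adjusted p = 0.0824).

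Mcm4 read 35.0, 30.3, 35.3, 26.4 and 32.6 CPM in Control and 41.5, 36.7, 36.3, 37.0 and 37.4 CPM with oxLDL. All 5 oxLDL libraries lay above all Control libraries (log2 fold change 0.24, SE 0.09, adjusted p = 0.0461). The loading factor Cdt1 fell from 13.7 to 10.7 CPM (log2 fold change -0.35, SE 0.14, adjusted p = 0.0563). Its partner Cdc6 and the helicase cofactors Cdc45 and Mcm10 did not pass, with log2 fold changes of -0.15, 0.11 and -0.19.

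In DNA synthesis and nucleotide supply, 1 of 8 genes passed, against 36.0% of all genes. Pola1, the catalytic subunit of the polymerase that lays down primers, read 7.96, 4.66, 6.11, 3.38 and 6.15 CPM in Control and 10.2, 10.9, 8.52, 8.38 and 10.8 CPM with oxLDL. The groups did not overlap, and the log2 fold change of 0.78 (SE 0.19, adjusted p = 0.00809) was the highest of the 38. Pcna also did not overlap, from 50.1 to 60.3 CPM in Control and from 62.1 to 67.9 CPM with oxLDL, but did not pass (log2 fold change 0.20, SE 0.10, adjusted p = 0.136). The ribonucleotide reductase subunits Rrm1 and Rrm2, thymidylate synthase (Tyms), thymidine kinase (Tk1), primase (Prim1) and the clamp loader subunit Rfc3 had log2 fold changes from -0.14 to 0.21 and did not pass.

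None of the 4 mitotic cyclin and Cdk1 genes passed, with log2 fold changes from -0.14 for Ccna2 to 0.10 for Cdk1. Of the 9 genes of chromosome structure and segregation, 2 rose and 1 fell, against 18.1% and 18.0% of all genes. Top2a, the topoisomerase that untangles sister chromatids, read 41.5, 31.5, 35.7, 27.6 and 30.7 CPM in Control and 50.5, 39.8, 45.3, 42.5 and 45.2 CPM with oxLDL (log2 fold change 0.42, SE 0.14, adjusted p = 0.0278). Mki67 read 30.2, 20.8, 21.1, 20.997 and 20.5 CPM in Control and 35.1, 34.6, 22.7, 24.7 and 29.2 CPM with oxLDL. Here Control replicate 1 lay above the other 4 Control libraries by a wide margin (log2 fold change 0.37, SE 0.16, adjusted p = 0.0741).

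Plk1, the kinase that drives entry into mitosis and spindle assembly, fell from 13.4 ± 1.76 to 9.49 ± 1.01 CPM (log2 fold change -0.50, SE 0.13, adjusted p = 0.00896). Its Control libraries read 10.3, 13.6, 14.5, 14.03 and 14.6 CPM and the oxLDL libraries 9.46, 8.17, 10.7, 10.2 and 8.91 CPM, so replicate 1 of Control was the one that overlapped. The Aurora kinases Aurka and Aurkb, the checkpoint kinases Bub1 and Bub1b, the anaphase activator Cdc20 and survivin (Birc5) did not pass, with log2 fold changes from -0.21 to 0.37.

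In all, 5 of the 38 genes had oxLDL and Control libraries that did not overlap, against 8.35% of all genes, and these were Cdk2, Ccnd1, Mcm4, Pcna and Pola1. Without Control replicate 1 and IS replicate 4, 21 genes passed, 8 higher and 13 lower, and the 17 were all among them, while 47.6% of all genes passed. Leaving out any 1 library gave 9 to 21, and the count fell to 9 without Control replicate 2 or 4, to 10 without Control replicate 5, oxLDL replicate 2 or oxLDL replicate 5, and rose to 21 without Control replicate 1. The share of all genes called moved with it, from 24.7% without Control replicate 4 to 45.9% without Control replicate 1. Top2a, Cdk2, Ccne2, Mcm3, Mcm5, Mcm7, Pola1, Plk1 and Rbl1 passed in each of these 10 fits. Mki67, Cdk4, Ccnd1, Ccne1, Mcm2, Mcm4, Mcm6 and Cdt1 were lost in some of them. With scaling by library size alone, which moved the median of all genes from 0.04 to 0.17, the split of 7 higher and 10 lower became 10 higher and 3 lower (Mcm5, Mcm7 and Plk1). Over all genes it was 4963 higher and 2276 lower in place of 3637 and 3622.

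**Figure D2:**
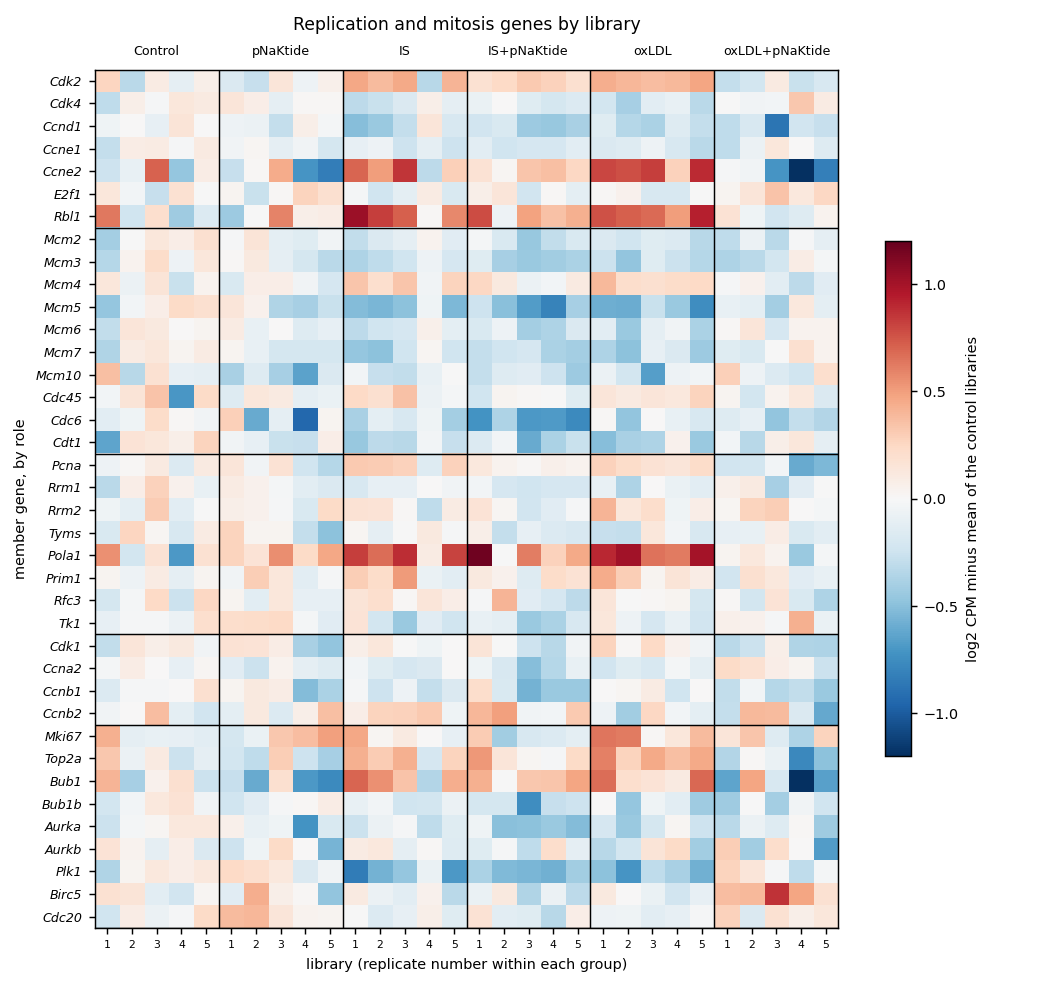
Log2 CPM of each gene (vertical axis, by role) in each of the 30 libraries (horizontal axis, by group) as the difference from the Control mean, red higher and blue lower. The row of Mcm5 is blue and that of Pola1 red in the 5 oxLDL libraries and in most IS libraries, while IS replicate 4 looks like most Control libraries.

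The direction of change went with base composition. The 7 genes higher with oxLDL had a median GC content of 43.4% in their transcripts (range 36.3 to 48.8), and the 10 lower ones had 52.6% (range 47.3 to 57.8), with overlap only between Cdk2 at 48.8% and Mcm6 at 47.3%. Over all genes the same split was seen, with a median of 43.3% for those higher, 54.3% for those lower and 49.6% for those not called. In each library, log2 expression relative to the mean of all libraries had a slope over GC content. It was -0.41 to -0.13 per 10% of GC in the oxLDL libraries and 0.02 to 0.33 in 4 Control libraries, but -0.20 in Control replicate 1. The IS libraries had slopes of -0.35 to -0.19, except IS replicate 4 at 0.27.

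When the trend of counts with GC content and transcript length was taken out library by library before the fit, 7 genes passed with oxLDL, 1 higher and 6 lower. Cdk2 remained higher (log2 fold change 0.38, adjusted p = 0.0181) and Mcm5 remained lower (-0.43, adjusted p = 0.0214), as did Mcm6 (-0.37, adjusted p = 0.0404). Ccna2 (-0.30), Rrm1 (-0.55), Tyms (-0.31) and Rfc3 (-0.33) passed as lower in this fit and not with TMM scaling alone. Pola1 then had a log2 fold change of 0.30 (adjusted p = 0.127), Rbl1 0.24, Top2a 0.04 and Plk1 -0.24, and the helicase genes Mcm2 -0.13, Mcm3 -0.18, Mcm4 0.03 and Mcm7 -0.15, none past the threshold, and Ccne2 changed sign to -0.036. Over all genes 20.5% passed in this fit. Whether the slopes come from the cells or from library preparation was not tested.

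**Figure D3:**
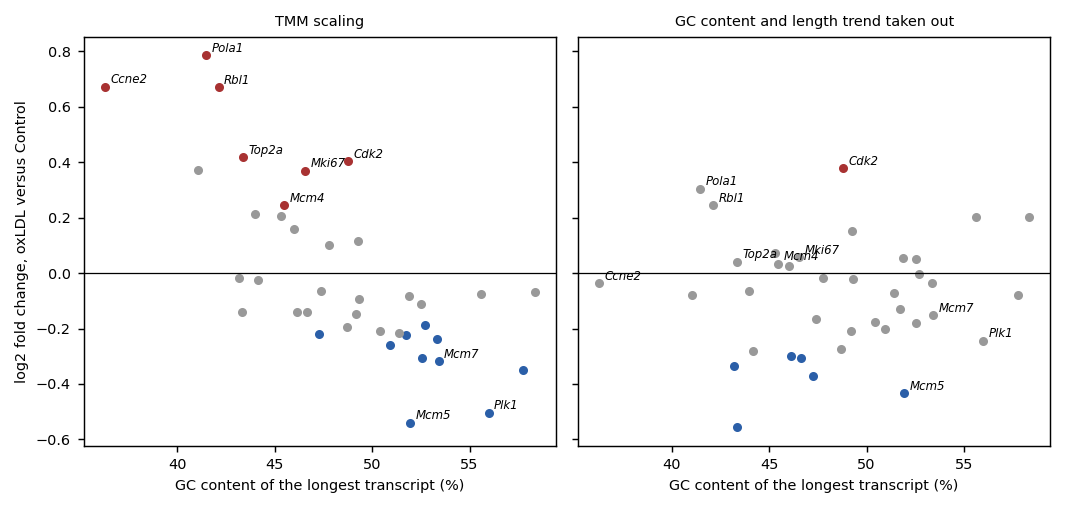
Log2 fold change with oxLDL against GC content of the longest transcript (%), for the 38 genes, after TMM scaling (left) and with the per-library trend of GC content and length taken out (right). Points are red where higher and blue where lower past the threshold and grey otherwise; on the left the 7 red points lie at 36.3 to 48.8% GC, and on the right Cdk2 is the one red point.

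The promoters of 4 of these genes are shown because they belong to the 2 directions, Pola1 and Top2a higher and Mcm5 and Mcm7 lower. Each is the 250 bases before a RefSeq start on GRCm38.p6, read 5′ to 3′ along the gene: Mcm5 at chr8:75109259-75109508 (plus strand), Mcm7 at chr5:138171884-138172133 (minus), Pola1 at chrX:93632156-93632405 (minus) and Top2a at chr11:99024190-99024439 (minus). Where a gene had several listed starts, the start with the most E2F matches is shown. Capitals mark the letters of 3 motifs on either strand: E2F (TTTCCCGC, TTTGGCGC, TTTCGCGC or TTTGCCGC), the CCAAT box (CCAAT), and CHR, the cell cycle homology region of mitotic promoters (TTTGAA or TTCGAA). In Mcm5 a pair of E2F matches overlaps.
Mcm5: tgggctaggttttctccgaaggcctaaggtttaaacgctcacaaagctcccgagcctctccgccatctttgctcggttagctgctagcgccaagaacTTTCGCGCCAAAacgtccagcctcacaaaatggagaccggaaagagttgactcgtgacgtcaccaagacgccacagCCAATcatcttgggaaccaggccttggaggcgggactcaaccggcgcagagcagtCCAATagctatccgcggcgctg
Mcm7: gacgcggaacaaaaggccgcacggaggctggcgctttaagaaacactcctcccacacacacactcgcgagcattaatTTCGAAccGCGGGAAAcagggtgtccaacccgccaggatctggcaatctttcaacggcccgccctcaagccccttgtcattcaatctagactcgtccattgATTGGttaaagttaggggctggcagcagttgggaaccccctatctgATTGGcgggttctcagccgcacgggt
Pola1: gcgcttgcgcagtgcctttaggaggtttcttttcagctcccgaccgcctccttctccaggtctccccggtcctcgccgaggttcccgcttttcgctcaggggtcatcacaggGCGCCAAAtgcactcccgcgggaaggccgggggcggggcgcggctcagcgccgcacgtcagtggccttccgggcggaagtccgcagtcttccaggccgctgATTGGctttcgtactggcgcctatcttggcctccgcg
Top2a: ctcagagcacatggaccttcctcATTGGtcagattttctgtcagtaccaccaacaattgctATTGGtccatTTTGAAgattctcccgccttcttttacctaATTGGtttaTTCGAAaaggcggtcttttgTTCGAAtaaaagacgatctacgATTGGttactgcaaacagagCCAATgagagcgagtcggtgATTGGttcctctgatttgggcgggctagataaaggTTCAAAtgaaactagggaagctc

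E2F letters stood 153 and 149 bases before the start shown in Mcm5, 165 in Mcm7 and 138 in Pola1, while Top2a had none and held 6 CCAAT and 4 CHR matches. Another listed start of Mcm7 had CCAAT letters 47 bases before it and no E2F or CHR letters. A promoter from 250 bases before to 50 after the start was listed for 33 of the 38 genes, and not for Ccna2, Ccnd1, Ccne2, Mcm4 and Aurkb. A gene was counted as holding a motif if any of its listed starts did. E2F letters were in 11 of the 33, or 33.3%, against 2.6% of 27025 genes with a promoter. The CCAAT letters were in 72.7% against 41.1%, and the CHR letters in 39.4% against 21.7%. By role, E2F letters were in 6 of 9 licensing and helicase genes and in 0 of 8 genes of chromosome structure and segregation, 7 of which held CHR letters. By direction, E2F letters were in 3 of 5 genes higher with oxLDL in 5 of 9 lower ones and in 3 of 19 that did not pass. A match of letters describes these windows and is not a measured binding site.

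Treatment with IS gave fewer calls. Rbl1 and Pola1 rose and Mcm5 and Plk1 fell, so 4 of 38 genes passed, 2 in each direction. Over all genes 7.94% passed, 4.45% higher and 3.49% lower. With scaling by library size alone the split was 5 higher and 2 lower, and over all genes 2125 higher and 416 lower in place of 897 and 702. The median of the 38 log2 fold changes was -0.09, against 0.03 for all genes. The groups overlapped for all 38 genes, while 1.81% of all genes did not overlap.

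Rbl1 read 12.7, 11.1, 10.3, 6.29 and 9.33 CPM in the IS libraries (log2 fold change 0.62, SE 0.18, adjusted p = 0.0711). Pola1 read 9.63, 8.62, 10.0, 5.82 and 9.51 CPM (0.63, SE 0.18, adjusted p = 0.0728). In both genes IS replicate 4 was the lowest IS library and lay inside the Control range. Mcm5 read 29.1, 28.5, 29.7, 40.2 and 28.7 CPM (-0.44, SE 0.13, adjusted p = 0.0737). Plk1 read 7.44, 8.98, 9.66, 12.6 and 8.23 CPM (-0.52, SE 0.12, adjusted p = 0.0470). In these IS replicate 4 was the highest, at the Control level.

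The count of calls with IS turned on the libraries that stood apart. It was 14 without Control replicate 1, 16 without IS replicate 4 and 17 without both, 7 higher and 10 lower. All genes moved alike, with 33.2%, 34.5% and 45.4% called in these 3 fits. Without both, Pola1 had a log2 fold change of 0.89 (adjusted p = 0.000243), Rbl1 0.93 (7.2e-05), Plk1 -0.72 (3.3e-05) and Mcm5 -0.64 (0.000122). Both libraries were picked for their values in these same data, so these adjusted p describe a selected set of libraries and are no independent support. The count was 1 without Control replicate 3, with 1.51% of all genes, and 0 without any 1 of the other 7 libraries of the comparison. With the GC content and length trend taken out, Mcm5 (-0.37, adjusted p = 0.0790) and Plk1 (-0.36, adjusted p = 0.0687) still passed and Pola1 and Rbl1 did not. A fit of the IS and Control libraries alone called 0 of the 38 genes and 0 genes in all. DESeq2, fitted on all 6 groups, called 8 of the 38, 4 in each direction, and 15.7% of all genes. In the main fit of all 6 groups, 1 of the 10 adipocyte markers was higher and 4 were lower with IS. That was 50.0%, against 7.94% of all genes. The lower ones included Cebpa (-0.46), Cidec (-0.48) and Adipoq (-0.43), and the log2 fold changes of the list ran from -0.48 to 0.45. Of the 9 preadipocyte markers 1 was lower, or 11.1%. Their part in the values of the 38 genes was not tested.

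pNaKtide given alone called 0 of 38 genes, against 0.00497% of all genes, which is 1 gene. DESeq2 also called 0 of the 38 and 57 of all genes, and 1233 of all genes had an unadjusted p under 0.05. The log2 fold changes of the 38 ran from -0.39 to 0.28, with a median of -0.06. All 10 licensing and helicase genes had negative values, from -0.37 to -0.05, and none passed.

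With pNaKtide added to oxLDL, Ccne2, Pola1, Rbl1, Top2a, Bub1, Cdk2, Pcna, Mcm4 and Cdk1 were lower than with oxLDL alone, and Birc5, Plk1, Mcm5, Cdk4, Mcm7, E2f1 and Mcm6 were higher. So 16 of 38 genes passed, 7 higher and 9 lower. Over all genes 48.3% passed, 22.1% higher and 26.1% lower, so the share among the 38 was near that of all genes. This comparison and that of oxLDL with Control share the 5 oxLDL libraries, so their values are given side by side and their signs were not counted against each other. The median of the 38 log2 fold changes was 0.03, against -0.09 for all genes.

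In G1/S control, Cdk2, Ccne2 and Rbl1 fell and Cdk4 and E2f1 rose. Ccne2 read 4.75, 4.64, 2.93, 1.32 and 2.72 CPM with oxLDL+pNaKtide, all below the oxLDL libraries. The log2 fold change of -1.24 (SE 0.25, adjusted p = 0.000212) was the largest in size among the 38 genes in this comparison. Ccne2 had few counts, down to 8 in 1 library. Rbl1 fell to 7.07, 6.01, 5.33, 5.63 and 6.44 CPM (log2 fold change -0.76, SE 0.19, adjusted p = 0.00156). Cdk2 fell to 15.4, 16.1, 20.3, 15.6 and 16.4 CPM (-0.58, SE 0.12, adjusted p = 0.000302). Cdk4 was at 183 CPM (0.30, SE 0.09, adjusted p = 0.00788). Ccnd1 did not pass (-0.10, SE 0.11).

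Of the licensing and helicase genes, Mcm5, Mcm6 and Mcm7 rose and Mcm4 fell. Mcm5 read 39.3, 38.5, 31.4, 45.5 and 38.5 CPM, above all oxLDL libraries except for replicate 3 at 31.4 CPM (log2 fold change 0.41, SE 0.13, adjusted p = 0.0148). Mcm7 rose to 47.5, 46.2, 52.3, 59.9 and 54.0 CPM, with overlap (0.29, SE 0.10, adjusted p = 0.0207). Mcm4 fell to 31.5, 32.8, 29.1, 25.5 and 28.8 CPM, below all oxLDL libraries (-0.35, SE 0.09, adjusted p = 0.00263). Mcm2 and Mcm3, both lower with oxLDL, did not pass here, with log2 fold changes of 0.05 and 0.13.

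Pola1 and Pcna fell among the DNA synthesis genes. Pola1 read 5.56, 5.91, 5.60, 3.97 and 5.34 CPM (log2 fold change -0.88, SE 0.19, adjusted p = 0.000478). Pcna, the clamp that holds the polymerase on DNA, read 67.9, 65.4, 63.4, 62.1 and 65.2 CPM with oxLDL and 47.9, 48.0, 54.7, 36.9 and 38.7 CPM with oxLDL+pNaKtide (-0.51, SE 0.10, adjusted p = 0.000231). In neither gene did the groups overlap. The nucleotide supply genes Rrm1, Rrm2, Tyms and Tk1 had values from -0.04 to 0.17 and did not pass.

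In mitosis, Cdk1, Top2a and Bub1 fell and Plk1 and Birc5 rose. Cdk1, the kinase of mitotic entry, read 34.9, 29.2, 34.1, 30.1 and 28.1 CPM with oxLDL and 23.2, 24.3, 30.3, 22.5 and 22.4 CPM with oxLDL+pNaKtide, where only replicate 3 reached the oxLDL range (log2 fold change -0.34, SE 0.12, adjusted p = 0.0202). Top2a read 25.9, 33.3, 31.3, 19.4 and 23.6 CPM, below all oxLDL libraries (-0.73, SE 0.14, adjusted p = 0.000162). Bub1, which signals unattached chromosomes, went from 5.19 to 3.04 CPM (-0.73, SE 0.24, adjusted p = 0.0132). Plk1 read 16.0, 14.7, 13.1, 10.8 and 13.1 CPM, above all oxLDL libraries (0.52, SE 0.13, adjusted p = 0.00132).

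Birc5, which encodes survivin of the chromosomal passenger complex, had not passed with oxLDL alone. It read 7.76, 7.22, 6.79, 6.12 and 6.70 CPM with oxLDL and 9.27, 9.39, 13.1, 9.93 and 8.16 CPM with oxLDL+pNaKtide, without overlap (log2 fold change 0.53, SE 0.14, adjusted p = 0.00276). It was the only gene of the 38 higher than Control with oxLDL+pNaKtide (0.46, SE 0.14, adjusted p = 0.0636). Ccnd1 was the only one lower, at 60.3, 65.2, 40.7, 63.7 and 61.5 CPM (-0.36, SE 0.11, adjusted p = 0.0714). Neither gene's libraries overlapped with Control, and 4.03% of all genes did not overlap. So 2 of 38 genes passed against Control, with 5.20% of all genes. Ccnd1 lost this call without any 1 of Control replicates 4 and 5 and oxLDL+pNaKtide replicates 1, 3, 4 and 5. Birc5 lost it without any 1 of Control replicates 3, 4 and 5 and oxLDL+pNaKtide replicates 3 and 4. The count was 4 without Control replicate 1 and IS replicate 4, with 6.39% of all genes.

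In the comparison of oxLDL+pNaKtide with oxLDL, 10 of the 38 genes did not overlap, against 28.4% of all genes. Without the 2 libraries that stood apart from Control and IS, which are not in this comparison but share its error estimate, 18 genes passed, with 50.7% of all genes. Leaving out 1 library gave 15 to 19. With scaling by library size alone, where the median of all genes was -0.30, the split of 7 higher and 9 lower became 2 higher (Plk1 and Birc5) and 18 lower. All genes then had 2696 higher and 7680 lower in place of 4458 and 5264. With the GC content and length trend taken out the split of the 38 became 9 higher and 2 lower, with 36.8% of all genes called, and 6 of these 11 genes were among the 16. Cdk2 (-0.47) and Pcna (-0.37) stayed lower, and Mcm5 (0.35), Mcm6 (0.49), Plk1 (0.25, from 0.52) and Birc5 (0.72) stayed higher. The other 10 of the 16 no longer passed. They were E2f1, which changed sign to -0.06, and Ccne2 (-0.37), Pola1 (-0.19), Rbl1 (-0.14), Top2a (-0.18), Bub1 (-0.14), Mcm4 (-0.02), Cdk1 (-0.11), Cdk4 (0.08) and Mcm7 (0.15). The GC slopes of the oxLDL+pNaKtide libraries were 0.10 to 0.65, all above those of the oxLDL libraries.

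**Figure D4:**
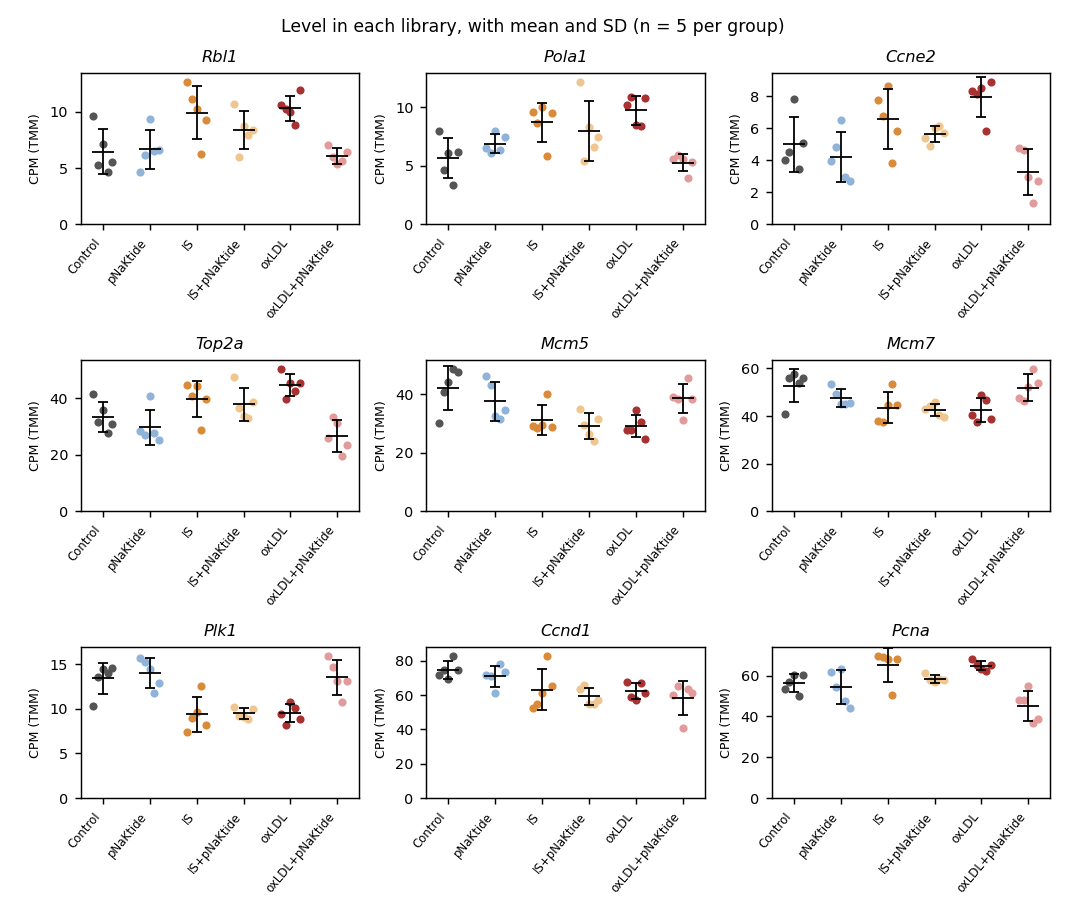
CPM after TMM scaling (vertical axis, from 0) of 9 genes in the 6 groups, 1 point a library, with mean and SD as black lines. Rbl1, Pola1, Ccne2 and Top2a stand higher with oxLDL than with oxLDL+pNaKtide in all 5 libraries of each group, and Plk1 stands lower.

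Whether the change with pNaKtide differed in the presence of oxLDL from that in its absence was tested as an interaction. It passed for 11 of 38 genes, against 24.6% of all genes. The change with pNaKtide was lower with oxLDL than without it for Pola1 (log2 difference -1.16, SE 0.27, adjusted p = 0.0204), Ccne2 (-1.01, SE 0.36), Rbl1 (-0.81, SE 0.27), Top2a (-0.57, SE 0.20), Cdk2 (-0.51, SE 0.17) and Pcna (-0.46, SE 0.15). It was higher for Mcm5 (0.57, SE 0.19, adjusted p = 0.0428), Mcm10 (0.57, SE 0.21), Birc5 (0.53, SE 0.20), Plk1 (0.46, SE 0.18) and Mcm7 (0.44, SE 0.14). Without Control replicate 1 and IS replicate 4, 19 genes passed, with 40.0% of all genes. The count fell to 3, with 10.5% of all genes, without pNaKtide replicate 3, whose GC slope of -0.13 set it apart from the other pNaKtide libraries at 0.22 to 0.28. It rose to 19 without Control replicate 1, with 37.3% of all genes. With scaling by library size alone the split of 5 higher and 6 lower became 1 higher (Mcm5) and 9 lower, 7 of these 10 among the 11, and over all genes 1279 were higher and 3991 lower in place of 2575 and 2376. Mcm5, Mcm7 and Pola1 passed whichever 1 library was left out. With the trend of GC content and length taken out, 8 genes passed, 5 higher and 3 lower, with 11.9% of all genes called. The lower ones were Pola1 (-0.58, adjusted p = 0.0738), Cdk2 (-0.45) and Pcna (-0.28). Of the 11 genes 6 were among the 8, and Ccne2 (-0.21), Rbl1 (-0.29), Top2a (-0.10), Plk1 (0.17) and Mcm7 (0.26) no longer passed.

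**Figure D5:**
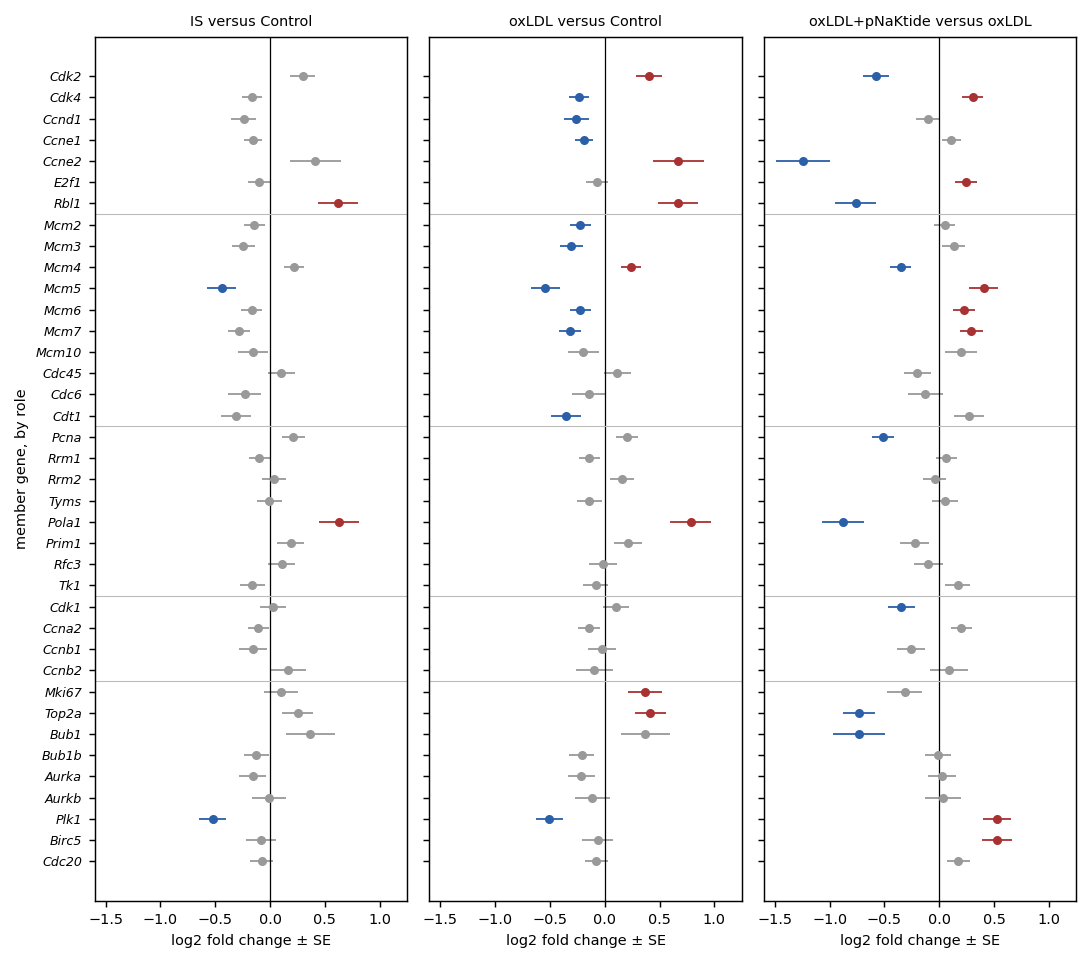
Log2 fold change and SE of the 38 genes (by role) for IS and oxLDL against Control and for oxLDL+pNaKtide against oxLDL, red where higher and blue where lower at an adjusted p under 0.1. Ccne2 lies at 0.67 with oxLDL and -1.24 when pNaKtide was added. Both values use the same oxLDL libraries, and the gene had as few as 8 counts in a library. Neither passed with the trend of GC content and length taken out.

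With pNaKtide added to IS, 0 of 38 genes passed against IS alone, and 0% of all genes did by edgeR. DESeq2 called 0 of the 38 and 14 of all genes, and 564 of all genes had an unadjusted p under 0.05 by edgeR. The log2 fold changes ran from -0.41 to 0.07. The interaction of pNaKtide with IS likewise passed for 0 of 38 genes and 0% of all genes, also by DESeq2, with 619 of all genes at an unadjusted p under 0.05. Side by side, with IS+pNaKtide and with IS, Rbl1 was at 8.36 ± 1.69 against 9.94 ± 2.39 CPM, Pola1 at 7.99 ± 2.58 against 8.72 ± 1.69, Mcm5 at 29.3 ± 4.38 against 31.2 ± 5.04 and Plk1 at 9.49 ± 0.578 against 9.38 ± 1.98 CPM (SD, n = 5).

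Against Control, the licensing genes lower with IS+pNaKtide were Mcm5 (log2 fold change -0.53, SE 0.13, adjusted p = 0.0972) and Cdc6 (-0.64, SE 0.16, adjusted p = 0.0841), 2 of 38 against 0.358% of all genes. Cdc6 read 5.17, 5.45, 6.59, 5.70 and 5.49 CPM in Control and 3.43, 4.36, 3.52, 3.53 and 3.32 CPM with IS+pNaKtide, without overlap. Ccnd1 and Plk1 also did not overlap and did not pass, and 3.79% of all genes did not overlap. The count was 16 without Control replicate 1, when 26.7% of all genes passed, 19 without both Control replicate 1 and IS replicate 4, when 32.4% of all genes passed, and 0 without any 1 of the other 9 libraries. DESeq2 called 9 genes, all lower, and 7.38% of all genes.

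Other genes of the same processes, from lists that leave out the 38, were called at 45.0% in both lists with oxLDL, against 36.0% of all genes. Values of these lists, and of the brakes and markers below, are given with TMM scaling and all libraries only. The trend of GC content and length, which changed many calls among the 38, was left in. Of 40 other replication genes, 9 rose and 9 fell. The origin recognition subunit Orc4 rose (log2 fold change 0.93, SE 0.25, adjusted p = 0.0112), while the polymerase delta subunit Pold2 (-0.68, SE 0.16) and the clamp loader subunit Rfc2 (-0.48, SE 0.11) fell, both at an adjusted p of 0.00783. Of 40 other mitosis genes, 14 rose and 4 fell. The condensin subunits Smc2 (1.02, SE 0.22, adjusted p = 0.0073) and Smc4 (0.98, SE 0.25, adjusted p = 0.00932) rose, and the centromere gene Cenpn (-0.49, SE 0.13, adjusted p = 0.0103) fell. Smc2 went from 6.09 to 12.3 CPM and Smc4 from 13.2 to 26.1 CPM.

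When pNaKtide was added to oxLDL, a comparison in which 22.1% of all genes rose and 26.1% fell, 10 other replication genes rose and 17 fell. The checkpoint scaffold Topbp1 (log2 fold change -0.65, SE 0.11, adjusted p = 5.3e-05) and the maintenance methyltransferase Dnmt1 (-0.41, SE 0.08) fell, and Rfc2 (0.59, SE 0.11, adjusted p = 8.8e-05) rose. Of the other mitosis genes 6 rose and 16 fell. Smc2 fell (-1.26, SE 0.23, adjusted p = 7.5e-05), as did the contractile ring gene Anln (-0.61, SE 0.13), and the ubiquitin-conjugating enzyme Ube2c rose (0.56, SE 0.11, adjusted p = 0.000149). With IS, where 7.94% of all genes passed, 2 other replication genes rose and 1 fell, and 3 other mitosis genes rose and 1 fell.

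Among 13 tested cell cycle brakes, 3 rose and 3 fell with oxLDL, or 46.2% called against 36.0% of all genes. The repressor E2f5 (log2 fold change 0.77, SE 0.20, adjusted p = 0.00999), the retinoblastoma gene Rb1 (0.64, SE 0.17, adjusted p = 0.0102) and the Cdk inhibitor Cdkn1b (0.58, SE 0.16, adjusted p = 0.0108) rose. With pNaKtide added to oxLDL, where 48.3% of all genes passed, 1 of the 13 rose and 7 fell. Cdkn1b fell from 31.0 ± 1.53 to 13.7 ± 3.00 CPM (-1.16, SE 0.16, adjusted p = 1e-05), and the Rb1 relative Rbl2 (-0.57, SE 0.10) and the antiproliferative gene Btg2 (-0.47, SE 0.11) also fell. In the same comparison 4 of 10 adipocyte markers rose, among them Retn (0.71) and Adipoq (0.44), and Cd36 (-0.73) fell, while 3 of 9 preadipocyte markers rose and 2 fell. Both shares, 50.0% and 55.6%, stood beside 48.3% of all genes. With oxLDL against Control, Cd36 (0.53) rose and Cebpa (-0.30) and Cidec (-0.34) fell among the adipocyte markers, and 1 preadipocyte marker fell, so 3 of 10 and 1 of 9 passed, against 36.0% of all genes. The part of adipocyte differentiation in the values of the 38 genes was not tested.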

How the data were processed

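Poly(A) RNA of 30 libraries was sequenced by the authors. Per the labels and the study's methods, reads were trimmed with Trimmomatic 0.38, aligned to GRCm38 with HISAT2 2.1.0 and counted per gene, and the submitters' notes name DESeq2 1.20.0. The deposited counts are raw, per gene and library. The deposited FPKM values were scaled by the authors to depth and gene length. Which annotation release was counted, and whether strand was used, is not stated in the sources, so reads of overlapping genes on both strands could be shared. The authors' table of normalized counts was not used.

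In R 4.3.3, edgeR 4.0.16 was run on genes whose counts summed to more than 14 (TMM scaling, robust quasi-likelihood fit of the 6 groups, biological coefficient of variation 14.0%). P-values are two-sided and were adjusted over all genes with the Benjamini-Hochberg method, with a threshold of 0.1. SE is the log2 fold change divided by the root of F. CPM are TMM-scaled, with a prior count of 2 on the log2 scale. The GC content and length of each gene's longest transcript came from GENCODE, and a smooth trend over both was fitted per library with mgcv 1.9.3. Promoters came from RefSeq (GRCm38.p6). No pair of libraries within a group was a duplicate, since the lowest chi-square per degree of freedom was 1.28 over the 60 such pairs, and pairs across groups were not compared. Alternatives were DESeq2 1.42.0, RLE factors, no scaling beyond library size, a filter of over 14 counts in each library (11567 genes) or of any count (29409 genes), a stricter threshold of 0.05, a replicate block, the compared groups alone, leaving out libraries, the trend of GC content and length, and limma 3.58.1 on log2(FPKM + 1) at a mean FPKM of 0.5 or more (13639 genes). The steps were tested on simulated data.

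The genes and lists were chosen with earlier results of these data known. All 38 genes may be named. Full values are given for Mki67, Top2a, Pcna, Ccnd1, Cdk1 and Mcm2 and for at most 3 called genes per role with the smallest adjusted p with oxLDL against Control and with oxLDL+pNaKtide against oxLDL, 16 in all, and these were followed through every alternative. Values of the others, such as Cdc6, were added after they were seen. At most 3 genes per other list and comparison, those with the smallest adjusted p, are named.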

Additional observations from a re-analysis of the deposited data

Results flagged for a closer look

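In the 16 genes followed through every alternative, 96 groups of 5 libraries were examined for a library far from the others (a gap to the nearest value of more than 0.71 of the group's range). There were 13, where chance at 1 in 20 gives 4.8. Control replicate 1 stood apart in Mki67 (30.2 CPM, the others 20.5 to 21.1), Mcm7 (40.9, the others 53.8 to 57.5) and Plk1 (10.3, the others 13.6 to 14.6). IS replicate 4 stood apart in Cdk2 (14.9 CPM, the others 24.5 to 25.9), Mcm5 (40.2, the others 28.5 to 29.7) and Pcna (50.4, the others 68.0 to 69.8). In oxLDL+pNaKtide, replicate 3 stood apart in Cdk1 (30.3 CPM), Cdk2 (20.3) and Ccnd1 (40.7, the others 60.3 to 65.2). Single cases were Top2a in pNaKtide replicate 3 (40.6 CPM), Ccne2 in oxLDL replicate 4 (5.80), Mcm3 in IS+pNaKtide replicate 1 (35.2) and Mcm4 in oxLDL replicate 1 (41.5).

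The change with pNaKtide differed between cells with and without oxLDL, past the threshold of the interaction test, in 10 of the 16 genes. The 16 were named largely for their adjusted p in comparisons that share these libraries, so this count is no measure of how common the difference was. Of all 38 genes 11 passed, against 24.6% of all genes. The log2 differences were -1.16 for Pola1, -1.01 for Ccne2, -0.81 for Rbl1, -0.57 for Top2a, -0.51 for Cdk2 and -0.46 for Pcna, and 0.57 for Mcm5, 0.53 for Birc5, 0.46 for Plk1 and 0.44 for Mcm7.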

How the results depend on the processing

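Counts of the 38 genes called depended on the setting as follows, in the order of the text. Percentages give the share of all genes called in the same fit. With oxLDL, 17 (36.0%) became 7 with the GC content and length trend taken out (20.5%) and 10 at an adjusted p of 0.05 (27.1%), and the log2 fold change of Ccne2 changed sign to -0.036 without that trend. With IS, 4 (7.94%) became 8 by DESeq2 (15.7%), 7 with library size alone (12.6%), 7 with more than 14 counts in every library (20.96%), 8 with a replicate block (17.0%), 0 with the compared groups alone (0%), 2 with the trend taken out (5.54%), 1 at an adjusted p of 0.05 (0.646%) and 17 without Control replicate 1 and IS replicate 4 (45.4%). With oxLDL+pNaKtide against Control, 2 (5.20%) became 1 with RLE factors (5.17%), 4 with library size alone (9.77%), 1 with at least 1 count (2.24%), 0 with the compared groups alone (0.0546%), 4 without both libraries (6.39%) and 0 at an adjusted p of 0.05 (2.93%). With IS+pNaKtide against Control, 2 (0.358%) became 9 by DESeq2 (7.38%), 0 with library size alone (0.149%), 4 with more than 14 counts in every library (2.70%), 0 with at least 1 count (0.146%), 8 with a replicate block (6.64%), 7 with the compared groups alone (5.72%), 7 with the trend taken out (2.90%), 19 without both libraries (32.4%) and 0 at an adjusted p of 0.05 (0.0397%). For the interaction of pNaKtide with oxLDL, 11 (24.6%) became 17 by DESeq2 (29.2%), 19 without both libraries (40.0%) and 6 at an adjusted p of 0.05 (13.4%). The cause of these shifts was not tested. With oxLDL+pNaKtide against oxLDL, the count stayed within 1.5 times 16 in every alternative, but not the genes: 6 of the 11 called with the trend taken out were among the 16, and 11 of the 20 called with library size alone, where the split of 7 higher and 9 lower became 2 and 18. pNaKtide alone, IS+pNaKtide against IS and the interaction with IS gave 0 in every alternative.

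Leaving out 1 library gave 9 to 21 calls with oxLDL, 0 to 16 with IS, 15 to 19 with oxLDL+pNaKtide against oxLDL, 0 to 2 with oxLDL+pNaKtide against Control, 0 to 16 with IS+pNaKtide against Control and 3 to 19 for the interaction with oxLDL. The shares of all genes called ran from 24.7 to 45.9%, 0.0745 to 34.5%, 41.4 to 48.7%, 2.51 to 6.46%, 0.00993 to 26.7% and 10.5 to 37.3% in the same order. With library size alone the median log2 fold change of the 38 genes was 0.04 with oxLDL, 0.03 with IS, -0.19 with oxLDL+pNaKtide against oxLDL, -0.18 and -0.05 with oxLDL+pNaKtide and IS+pNaKtide against Control, and -0.14 for the interaction with oxLDL. Of 937 alternative values of the 16 genes followed through every alternative, 786 kept their direction and side of the threshold, 150 kept the direction but no longer passed and 1, that of Ccne2, changed sign.

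The labels do not say that replicate numbers pair the libraries. Same-numbered libraries correlated in their deviations between -0.71 and 0.82 (median 0.0999 over 75 pairs), and 10 of 30 libraries correlated best with their own number. With the replicate block, the calls were 18 with oxLDL (38.8% of all genes), 8 with IS (17.0%), 18 with oxLDL+pNaKtide against oxLDL (49.6%), 3 against Control (8.21%), 8 with IS+pNaKtide against Control (6.64%) and 13 for the interaction with oxLDL (29.8%). Depth limits Ccne2 and Bub1 most, with as few as 8 and 7 counts in a library.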
